A study of Homo sapiens with 6 samples.

Results

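Glutamine and glutamate metabolism was read here through 9 genes, GLUD1, GLUD2, GLS2, GLUL, GOT1, GOT2, GPT2, SLC1A5 and SLC38A2, in TGF-β1-stimulated HK2 cells with a control adenovirus or with an adenovirus for SIRT4. The genes were chosen by name, and all 9 stood among the 38100 genes of both deposited tables and among the 17720 genes with enough counts to be tested. None of the 9 had an adjusted p under 0.05 with all samples (edgeR's quasi-likelihood test, Benjamini-Hochberg adjustment over all genes tested), a threshold that 0.0113% of the tested genes passed. Both aspartate aminotransferases, GPT2, the glutamate dehydrogenase GLUD1, the transporter SLC1A5 and the glutaminase GLS2 had lower means in the SIRT4 cells, with folds between 0.773 and 0.914, and GLUL, SLC38A2 and GLUD2 had higher means, with folds between 1.04 and 1.24. GOT1, the cytosolic aspartate aminotransferase, was lower in every SIRT4 sample than in every control sample in both tables. Of all tested genes, 9.77% were so in scaled counts and 9.28% in FPKM. The adjusted p of GOT1 was 0.644 from edgeR with all samples. It passed the adjusted threshold when AdSIRT4 replicate 1, its SIRT4 sample nearest to the controls, was left out, as 6.71% of all genes tested in that fit did.

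Cells take up glutamine through plasma membrane carriers, and glutaminases in the mitochondria cleave its amide nitrogen to give glutamate and ammonia. Glutamate is turned into 2-oxoglutarate, an intermediate of the tricarboxylic acid cycle, either by glutamate dehydrogenase, which frees ammonia, or by aminotransferases, which pass the amino group to oxaloacetate or pyruvate and so make aspartate or alanine. Glutamine synthetase runs the other way. The proximal tubule is a main site of renal glutamine breakdown, where the ammonia serves acid excretion. SIRT4 is a sirtuin of the mitochondria, and glutamate dehydrogenase is among its known protein substrates. RNA levels say nothing of such a change on the protein.

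HK2 is an established line of human proximal tubular epithelial cells, and all samples were stimulated with TGF-β1, so no sample without TGF-β1 was compared. The AdCtrl group carried adenovirus with an empty vector and the AdSIRT4 group adenovirus for SIRT4, with 3 samples each and wild-type as the labelled genotype. The study's checklist states that n in its experiments in vitro means technical replicates, and if this covers the sequenced samples, the p-values measure only a technical spread. The titles all name HK2, although the number in the cell-line label differs between samples. Poly-A RNA was sequenced in bulk, so a smaller number of cells that express a gene and less of its RNA per cell cannot be told apart.

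The AdCtrl libraries held 42102861 to 53677241 counts, and the AdSIRT4 libraries 41537353, 85684748 and 80040053. SIRT4 had 31 to 57 counts in AdCtrl and 1996, 7995 and 6827 counts in AdSIRT4 replicates 1, 2 and 3, a log2 fold change of 6.36 (SE 0.357, adjusted p = 0.00801 from edgeR, and 0.0559 to 0.203 when an AdCtrl replicate was left out). AdSIRT4 replicate 1 stood apart. Against the other libraries of its group, its deviation had a Spearman correlation of -0.58 with gene length across genes, compared with 0.50 and 0.51 in replicates 2 and 3 and -0.18 to 0.17 in the AdCtrl libraries. Genes are not independent replicates. For genes described one by one, values without this library are given where a call changes or the log2 fold change moves by over 1.5 times. Medians by role are given with and without it. Of 17 epithelial and proximal tubule marker genes, 9 had at least 1 FPKM in every sample. The summed level of all 17 was 919 to 959 in AdCtrl and 885 to 1104 in AdSIRT4, most of it from the keratins KRT8 and KRT18. Among the 9 were the brush border genes GGT1 (65.7 to 83.5 FPKM) and MME (1.37 to 2.41 FPKM). Other brush border and water channel genes, ANPEP, LRP2, CUBN and AQP1, were under 0.1 FPKM. CDH1, PAX2, SLC34A1 and SLC5A2 lay between 0.0898 and 0.819 FPKM. All 4 endothelial and all 3 podocyte markers were under 0.1 FPKM, and so were the leukocyte markers PTPRC and CD3E (summed level of the leukocyte list 17.0 to 19.2 in AdCtrl and 18.9 to 22.2 in AdSIRT4, nearly all from CD68). Of 5 fibroblast markers, LUM alone reached 1 FPKM (summed level 5.50 to 6.13 in AdCtrl and 5.27 to 7.10 in AdSIRT4).

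GLUD1 and GLUD2 encode the same enzyme activity in nearly the same letters, which bears on what their counts can separate. GLUD1 (Entrez gene 2746, chr10:87050202-87094843, minus strand, coordinates of GRCh38.p14) has 13 exons in its principal transcript, and GLUD2 (Entrez gene 2747, chrX:121047610-121050094, plus strand) is an intronless copy with 1 exon. In the GENCODE v29 transcripts their coding sequences are both 1677 bases long and identical at 1637 positions (97.6%), and the longest identical coding run was 302 bases. Of all 50-base windows of the GLUD2 transcript, 31.5% occur letter for letter in the GLUD1 transcript, and 16.7% of the 100-base windows do. A read from such a window cannot be assigned by its sequence. The coding window with the densest differences, bases 44 to 73, is shown with the 5 differing bases in capitals (GRCh38, 5′ to 3′ on the coding strand).
GLUD1, chr10:87094697-87094726, minus strand: ggcccgctgccctgggctcGgcgTccGCcG
GLUD2, chrX:121047728-121047757, plus strand: ggcccgctgccctgggctcCgcgGccAAcC

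Levels were compared between genes in FPKM, which is per kilobase of transcript. SLC38A2 had the highest level, with a mean over all samples of 122.0 FPKM (107.1 to 134.1). GOT1 (57.7, from 48.0 to 66.9) and SLC1A5 (55.8, from 47.3 to 68.9) followed, and their ranges overlapped. GLUD1 (38.6, from 33.4 to 42.8) and GOT2 (36.6, from 31.5 to 40.7) overlapped likewise. Below them stood GPT2 (18.4, from 13.2 to 23.9) and GLUL (14.5, from 13.9 to 15.5), which overlapped in the AdSIRT4 samples and not in the AdCtrl samples. GLS2 (0.484, from 0.337 to 0.664) and GLUD2 (0.276, from 0.164 to 0.352) lay far lower, and these overlapped in the AdSIRT4 samples. The order of GPT2 and GLUL depends on the length used. In CPM, counts scaled by library size, GLUL was above GPT2 in every sample (means 123.5 against 94.5 in AdCtrl, 128.6 against 73.4 in AdSIRT4). The FPKM imply a length of 8.66 kb for GLUL, whose principal transcript has 4364 bases. For GPT2 they imply 4.57 kb, where the principal transcript has 3984 bases.

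**Figure D1:**
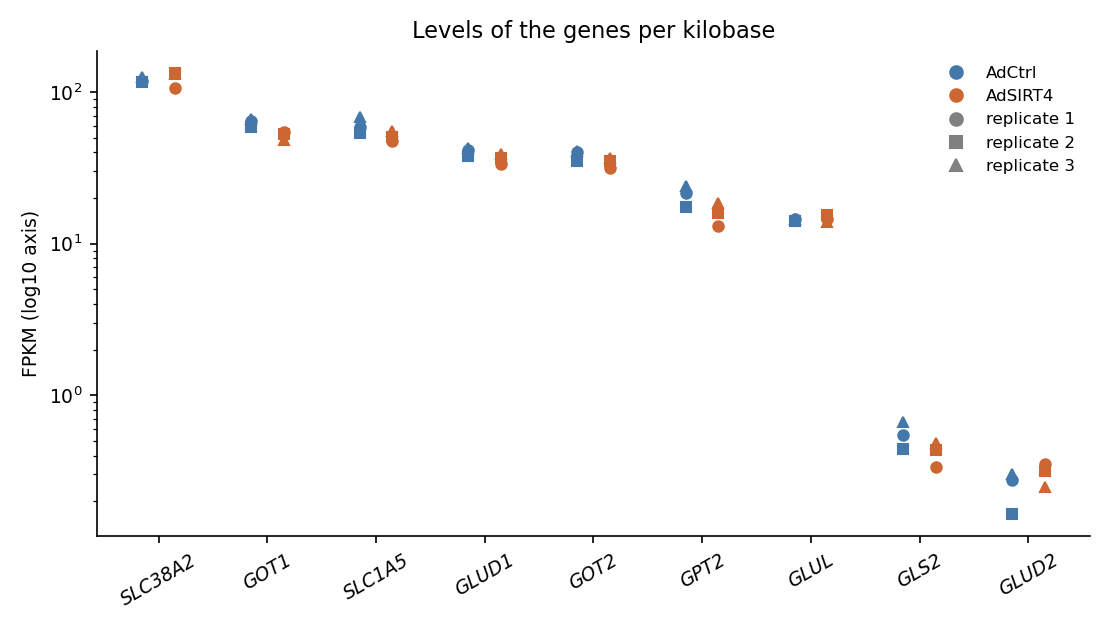
FPKM of each of the 9 genes in every sample, on a log10 axis, ordered by the mean over the 6 samples, with AdCtrl in blue, AdSIRT4 in orange and the marker shape giving the replicate number. SLC38A2 lies above 100 FPKM in every sample, while GLS2 and GLUD2 lie under 1 FPKM throughout.

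Uptake was represented by SLC1A5 and SLC38A2. SLC1A5 (Entrez gene 6510, chr19:46774883-46788594, minus strand), the ASCT2 exchanger that brings in glutamine against other neutral amino acids, stood at 192.8, 179.4 and 216.0 CPM in the AdCtrl samples (replicates 1, 2 and 3) against 165.4, 163.5 and 177.7 CPM in the AdSIRT4 samples. Replicates are listed in this order throughout, and CPM are counts scaled by library size. All AdSIRT4 samples lay below all AdCtrl samples in CPM, with AdCtrl replicate 2 close to AdSIRT4 replicate 3, and in FPKM the groups overlapped. Mean CPM were 196.0 ± 18.5 in AdCtrl and 168.8 ± 7.71 in AdSIRT4 (SD, n = 3). The log2 fold change was -0.22 (unadjusted p = 0.0825 and adjusted p = 0.678 from edgeR), with a 95% interval from -0.47 to 0.036 that held 0.

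SLC38A2 (Entrez gene 54407, chr12:46358188-46372773, minus strand), the SNAT2 carrier that moves glutamine and other neutral amino acids in together with sodium, had 640.3, 646.7 and 654.8 CPM in AdCtrl and 630.7, 726.8 and 705.2 CPM in AdSIRT4. The AdCtrl samples were close together, while AdSIRT4 replicate 1 lay below all of them and the other AdSIRT4 replicates above all of them. The log2 fold change was 0.087 (95% interval from -0.17 to 0.35, adjusted p = 0.815 from edgeR). Without AdSIRT4 replicate 1 it was 0.14 (adjusted p = 0.113 from edgeR), so the 2 uptake genes had log2 fold changes of opposite sign in each of these fits.

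GLS2 and GLUL run opposite reactions. GLS2 (Entrez gene 27165, chr12:56470952-56488161, minus strand), the liver-type glutaminase, had counts of 80, 52 and 90 in AdCtrl and 38, 100 and 105 in AdSIRT4, or 1.48, 1.22 and 1.75 CPM against 0.975, 1.16 and 1.29 CPM. AdCtrl replicate 2 fell within the AdSIRT4 range. Its log2 fold change was -0.37 (95% interval from -0.89 to 0.15, adjusted p = 0.718 from edgeR), the lowest of the 9 and one of the widest intervals.

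GLUL (Entrez gene 2752, chr1:182378098-182391790, minus strand), glutamine synthetase, had 126.2, 124.3 and 120.1 CPM in AdCtrl and 135.4, 132.8 and 117.6 CPM in AdSIRT4. AdSIRT4 replicate 3 was the lowest of all 6 samples and the other AdSIRT4 replicates were the highest. The log2 fold change was 0.058 (95% interval from -0.17 to 0.28, adjusted p = 0.854 from edgeR), the smallest in size among the 9, and 0.015 when AdSIRT4 replicate 1 was left out (adjusted p = 0.912 from edgeR).

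Glutamate dehydrogenase was counted almost wholly on GLUD1. GLUD1 had 155.2, 146.7 and 157.7 CPM in AdCtrl and 135.8, 138.7 and 145.4 CPM in AdSIRT4. The groups did not overlap in CPM, by a gap between AdCtrl replicate 2 and AdSIRT4 replicate 3, and they overlapped in FPKM. Mean CPM were 153.2 ± 5.79 in AdCtrl and 139.9 ± 4.91 in AdSIRT4 (SD, n = 3), which gave a log2 fold change of -0.13 (95% interval from -0.34 to 0.078, adjusted p = 0.734 from edgeR). The interval corresponds to folds from 0.790 to 1.06.

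GLUD2 had counts of 43, 21 and 44 in AdCtrl and 43, 78 and 57 in AdSIRT4, where GLUD1 had 5291 to 11959. In CPM these were 0.795, 0.494 and 0.856 against 1.103, 0.905 and 0.701, and the groups overlapped. Its log2 fold change of 0.31 had the widest interval of the 9 (from -0.40 to 1.03, adjusted p = 0.781 from edgeR), and it was 0.15 when AdSIRT4 replicate 1 was left out (adjusted p = 0.804). Given the shared stretches shown above, the GLUD2 count is uncertain. Summing both genes gave -0.13 on the log2 scale (adjusted p = 0.739 from edgeR).

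GPT2 and GOT1, both aminotransferases, had the lowest p-values of the 9 in edgeR with all samples, while GOT2 did not. GOT1 (Entrez gene 2805, chr10:99396870-99430624, minus strand), the cytosolic aspartate aminotransferase of the malate-aspartate shuttle, had 144.8, 136.0 and 144.6 CPM in AdCtrl and 133.1, 118.8 and 106.1 CPM in AdSIRT4. The groups did not overlap, and AdSIRT4 replicate 1 was the sample nearest to AdCtrl. Mean CPM were 141.8 ± 4.99 in AdCtrl and 119.3 ± 13.5 in AdSIRT4 (SD, n = 3), which gave a log2 fold change of -0.25 (SE 0.111, 95% interval from -0.51 to 0.012, unadjusted p = 0.0584 and adjusted p = 0.644 from edgeR). In FPKM the values were 64.4, 59.0 and 66.9 against 54.8, 53.1 and 48.0, again without overlap. Without AdSIRT4 replicate 1 the log2 fold change was -0.34 (SE 0.0624, adjusted p = 0.0124 from edgeR), and GOT1 was the 1 gene of the 9 that passed in that fit, where 6.71% of 18287 tested genes did.

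GOT2 (Entrez gene 2806, chr16:58707131-58734316, minus strand), the mitochondrial partner of GOT1, had 111.1, 99.6 and 107.8 CPM in AdCtrl and 93.8, 95.6 and 100.3 CPM in AdSIRT4. The groups overlapped narrowly, since AdSIRT4 replicate 3 lay just above AdCtrl replicate 2. The log2 fold change was -0.14 (95% interval from -0.35 to 0.076, adjusted p = 0.732 from edgeR).

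GPT2 (Entrez gene 84706, chr16:46884362-46931289, plus strand), the mitochondrial alanine aminotransferase, had 97.5, 81.6 and 104.3 CPM in AdCtrl and 64.7, 71.8 and 83.7 CPM in AdSIRT4. AdCtrl replicate 2 lay below AdSIRT4 replicate 3, and within each replicate number the AdSIRT4 sample was the lower one. The same held for GLUD1, GLS2, GOT1, GOT2 and SLC1A5, and the share of all tested genes for which it held was not counted. Mean CPM were 94.5 ± 11.7 in AdCtrl and 73.4 ± 9.57 in AdSIRT4 (SD, n = 3), which gave a log2 fold change of -0.36 (SE 0.138, 95% interval from -0.69 to -0.036). Its unadjusted p of 0.0341 was the lowest of the 9 in edgeR with all samples and did not hold after adjustment (adjusted p = 0.612 from edgeR). The order depended on the fit. In limma on log2(FPKM + 1) the unadjusted p was 0.0281 for GOT1 and 0.0626 for GPT2, and with the replicate block 0.0691 and 0.0468. A block for the replicate number left the adjusted p of GPT2 at 0.680 in edgeR.

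**Figure D2:**
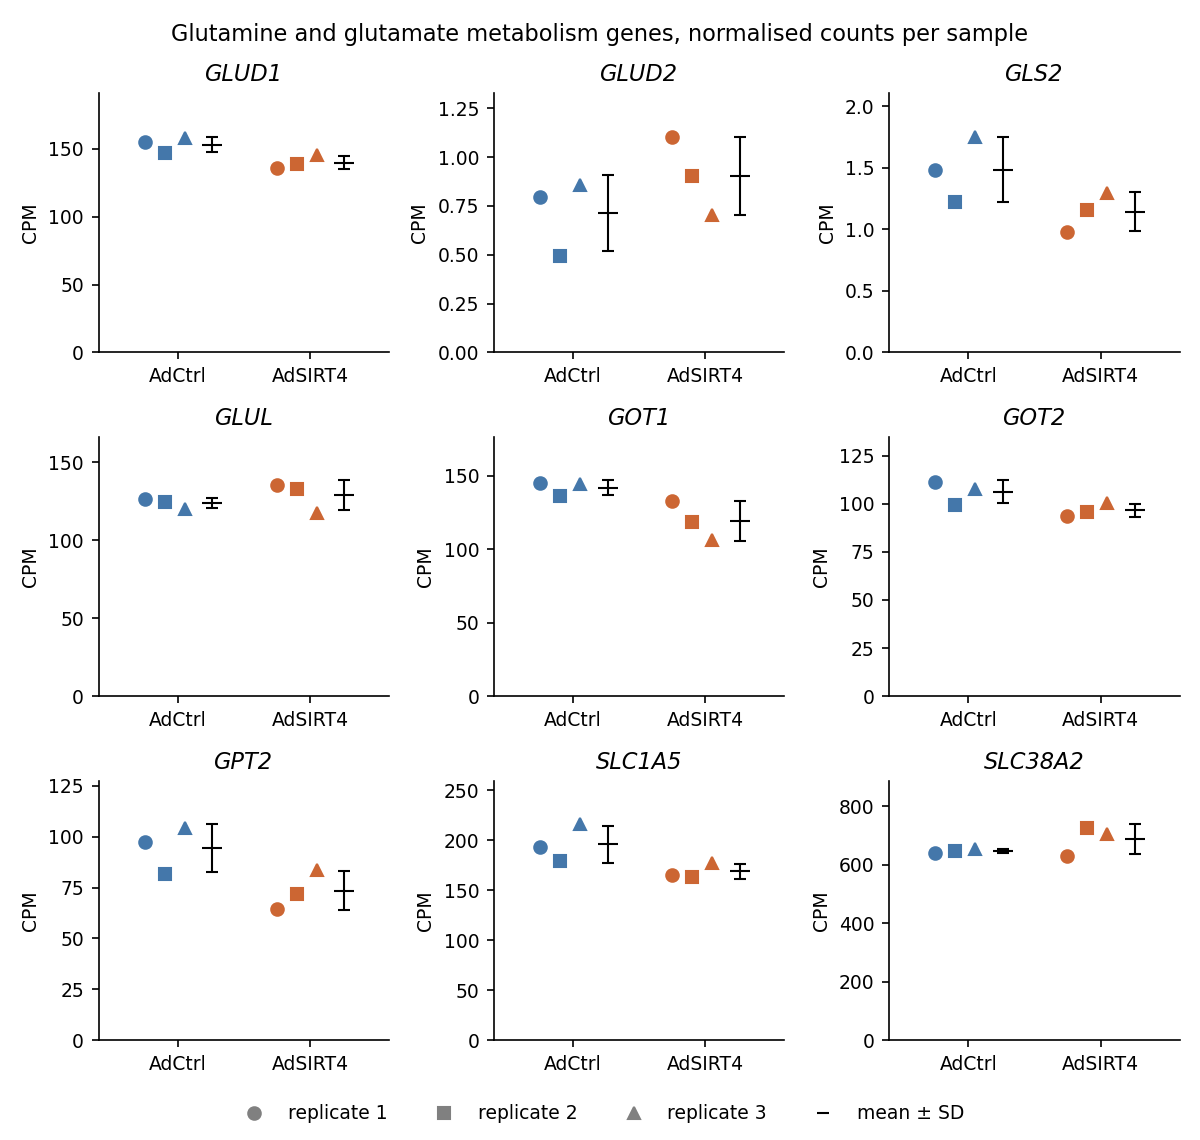
Normalized counts (CPM, axes from 0) of each gene in every sample, with AdCtrl in blue, AdSIRT4 in orange, marker shape for the replicate number and black bars for mean ± SD (n = 3). The groups are separate for GLUD1, GOT1 and SLC1A5 and overlap for the other 6 genes.

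Read together, 6 of the 9 log2 fold changes were below 0, with a median of -0.14, while 46.6% of all tested genes were below 0, with a median of 0.021. At an unadjusted p under 0.05, edgeR gave 1 of the 9 (GPT2), against 7.93% of all tested genes. DESeq2 and limma, like edgeR, gave 0 of the 9 after adjustment with all samples. For 3 of the 9 (GLUD1, GOT1 and SLC1A5), every AdSIRT4 sample was lower than every AdCtrl sample in CPM, against 9.77% of all tested genes, and for none was every AdSIRT4 sample higher. In FPKM the count was 1 of 9 (GOT1), against 9.28%. For each of the 3 genes the two-sided exact permutation test gave p = 0.1, the smallest that 3 samples against 3 allow, and for the other 6 it gave 0.2 to 0.5.

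Single libraries recurred at the edges of these ranges. AdSIRT4 replicate 1 was the lowest of the 6 samples for GLUD1, GLS2, GOT2, GPT2 and SLC38A2, and AdCtrl replicate 2 was the lowest AdCtrl sample for 7 of the 9, all but GLUL and SLC38A2. Without AdSIRT4 replicate 1, GOT1, GPT2, SLC1A5 and SLC38A2 had an unadjusted p under 0.05, where 24.3% of all tested genes did. Once the gene-length trend of the libraries was removed, GOT1, GPT2 and SLC1A5 did, at log2 fold changes of -0.31, -0.33 and -0.23, where 13.9% of all tested genes did. None of the 9 passed after adjustment in that fit, where 0.0677% of all tested genes did. No gene of the 9 changed the sign of its own log2 fold change in any alternative.

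**Figure D3:**
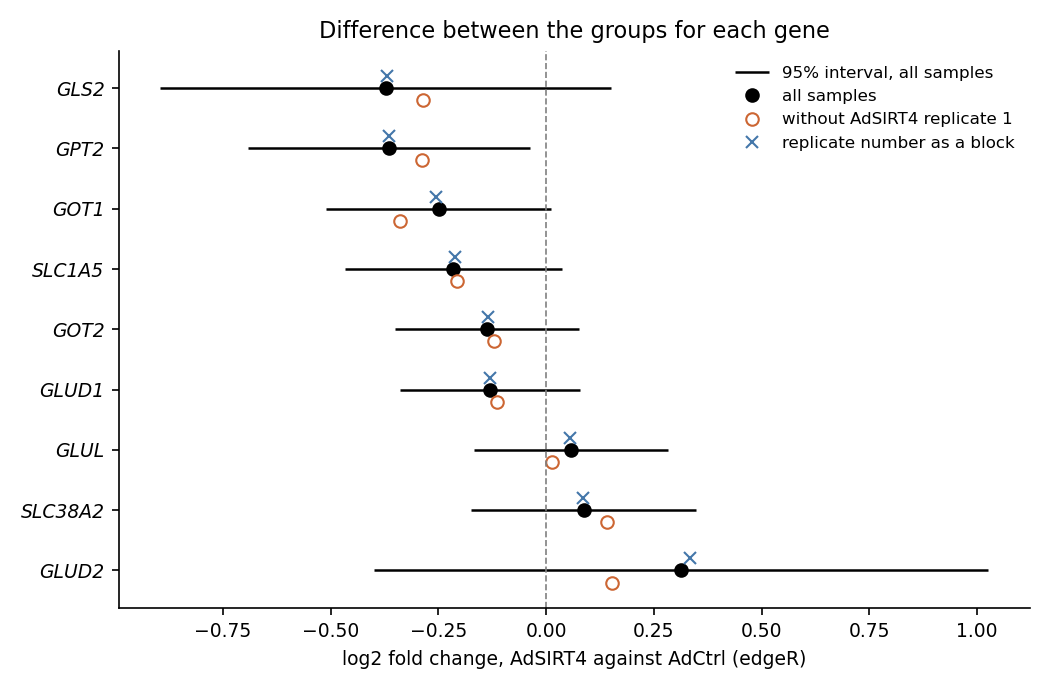
Log2 fold change of AdSIRT4 against AdCtrl from edgeR for each gene, with all samples (black, 95% interval), without AdSIRT4 replicate 1 (open orange) and with the replicate number as a block (blue cross). Of the 9 intervals, that of GPT2 alone does not reach 0, and leaving out AdSIRT4 replicate 1 moves GOT1 and SLC38A2 further from 0 and the other 7 genes nearer to it, GLUD2 by the most.

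Several of the counts rest on loci that share sequence or space with other genes. GLUD1, GLUL and GOT2 have annotated pseudogenes that can share their reads, so their values are uncertain. GLUD1, GLS2, GOT1, GOT2, SLC1A5 and SLC38A2 overlap annotated genes on the opposite strand, among them SHLD2 at GLUD1 and SPRYD4 at GLS2. How the counting treated strand is not given in the sources used here, and without it the reads of such pairs cannot be told apart. Dividing counts by FPKM and depth gave transcript lengths from 2.26 kb (GOT1) to 8.66 kb (GLUL), and each of the 9 lengths varied by less than 5% between samples.

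The wider pathway was read from 71 further genes, of which 65 were tested. Of these, 39 had a log2 fold change below 0 and 26 above, with a median of -0.058. None had an adjusted p under 0.05 in edgeR's test of all samples. At an unadjusted p under 0.05 there were 9, of which 8 were lower (3.5% of all tested genes) and 1 was higher (4.43%). Every AdSIRT4 sample was lower than every AdCtrl sample for 14 of the 65 and higher for 5, against 9.77% and 9.66% of all tested genes. Without AdSIRT4 replicate 1, 6 of the 65 passed after adjustment, where 6.71% of all tested genes did, with PSAT1, SLC1A4, ALDH4A1 and SLC25A11 lower and SLC7A6 and SLC38A7 higher. Of these, ALDH4A1, SLC25A11, SLC7A6 and SLC38A7 were named after their values were seen.

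By role, the 5 mitochondrial carriers, which move glutamate, aspartate or 2-oxoglutarate across the inner membrane, were all below 0 with all samples (median -0.085). In some alternatives SLC25A13, SLC25A18 and SLC25A22 were above 0, at up to 0.024, 0.10 and 0.045, while SLC25A11 and SLC25A12 stayed below. Of 7 tested genes of proline and ornithine metabolism, which draws on glutamate, 6 were below 0 (median -0.030). The other 15 tested transporters were split, 8 above and 7 below 0 (median 0.038). So were 17 genes listed for the interconversion of glutamate, 7 above and 10 below (median -0.058). This list also held ALDH5A1 and the 2-oxoglutarate dehydrogenase genes OGDH, OGDHL, DLST and DLD, which do not act on glutamate itself. Another list of 12 tested genes held mostly enzymes that use the amide nitrogen of glutamine, as in nucleotide, asparagine and hexosamine synthesis. It also held CPS1, NIT2 and ASNSD1, for which such use is not claimed. Of the 12, 7 were below 0 (median -0.11). Of 6 genes of glutathione synthesis and breakdown, 4 were above 0 (median 0.034), and of 3 tRNA ligases for glutamine and glutamate 2 were below 0 (median -0.14). No gene of any of these groups passed after adjustment with all samples. Without AdSIRT4 replicate 1 the medians were -0.16 for the carriers, -0.11 for proline and ornithine, 0.024 for the other transporters and -0.058 for interconversion. They were -0.036 for the amide nitrogen list, -0.063 for glutathione and -0.054 for the tRNA ligases, so the sign changed for glutathione.

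**Figure D4:**
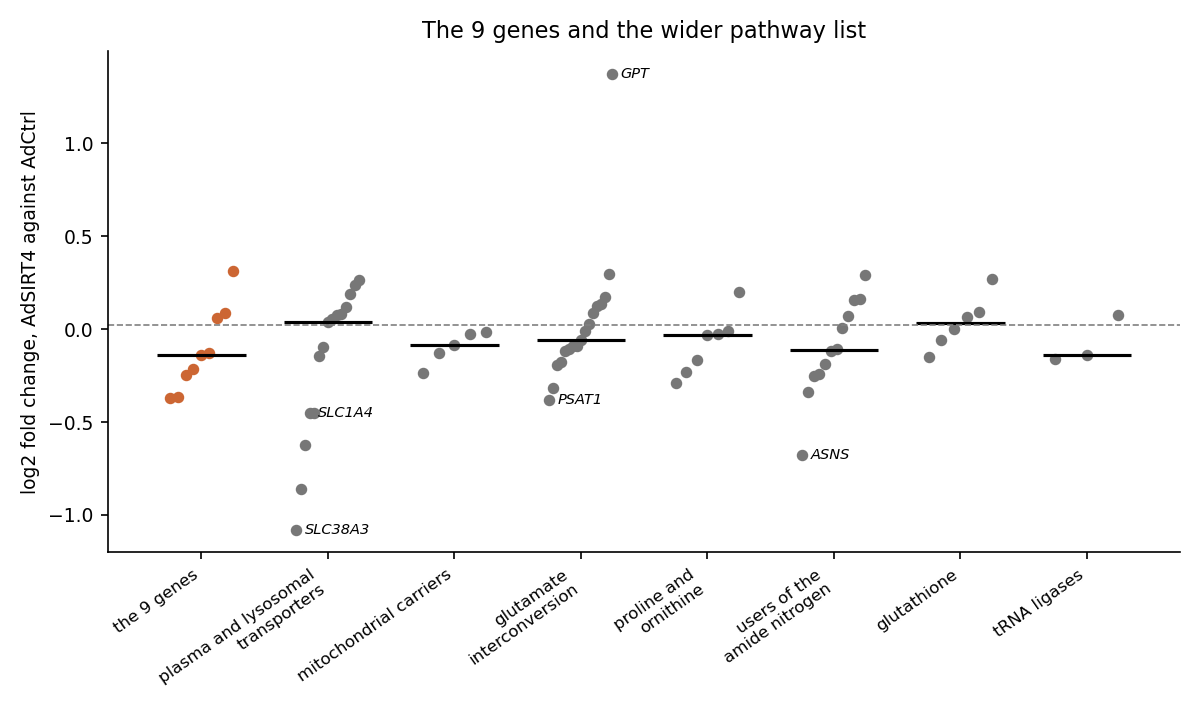
Log2 fold change of AdSIRT4 against AdCtrl from edgeR for the 9 genes (orange) and the 65 tested genes of the wider list (grey), sorted within each role, with black lines at group medians and a dashed line at the median of all tested genes (0.021). The names mark the 5 wider genes with the smallest p, of which GPT lies above 0 and the other 4 below.

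The 5 genes of the wider list with the smallest p are given by name. PSAT1, an aminotransferase of serine synthesis that turns glutamate into 2-oxoglutarate, had 110.0, 98.5 and 115.1 CPM in AdCtrl and 85.4, 80.9 and 82.5 CPM in AdSIRT4. The groups stood well apart with little spread in AdSIRT4, at a log2 fold change of -0.38 (SE 0.0959, unadjusted p = 0.00529, adjusted p = 0.494 from edgeR). The adjusted p was 0.0294 in DESeq2 and 0.00769 in edgeR without AdSIRT4 replicate 1. PSAT1 has annotated pseudogenes, as has ASNS, so both values are uncertain.

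ASNS, asparagine synthetase, which takes the amide nitrogen of glutamine and releases glutamate, had 47.9, 40.3 and 70.0 CPM in AdCtrl and 28.8, 29.5 and 40.9 CPM in AdSIRT4. Replicate 3 was the highest sample of each group, and AdSIRT4 replicate 3 lay just above AdCtrl replicate 2. The log2 fold change was -0.67 (SE 0.235, unadjusted p = 0.0241, adjusted p = 0.592 from edgeR). SLC1A4, the ASCT1 neutral amino acid exchanger of the same family as SLC1A5, had 58.3, 55.5 and 61.6 CPM in AdCtrl and 32.4, 44.3 and 51.3 CPM in AdSIRT4. All AdSIRT4 samples were lower, with replicate 1 far below the others, and the log2 fold change was -0.45 with all samples (adjusted p = 0.612 from edgeR) and -0.30 without replicate 1 (adjusted p = 0.0300 from edgeR).

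SLC38A3 and GPT were near the lower end of what these libraries count. SLC38A3, the SNAT3 glutamine carrier of kidney and liver, had 40, 32 and 35 counts in AdCtrl and 13, 35 and 23 in AdSIRT4, or 0.740, 0.753 and 0.681 CPM against 0.334, 0.406 and 0.283 CPM. All AdSIRT4 samples were lower, at a log2 fold change of -1.08 (unadjusted p = 0.00438, adjusted p = 0.494 from edgeR). Its implied transcript length was 6.12 kb in AdSIRT4 replicate 1 and 3.37 to 3.73 kb in the other samples. GPT, the cytosolic counterpart of GPT2, had 18, 9 and 13 counts in AdCtrl and 40, 38 and 55 in AdSIRT4, at a log2 fold change of 1.38 (unadjusted p = 0.0109, adjusted p = 0.531 from edgeR). The groups did not overlap, and GPT and GPT2 had log2 fold changes of opposite sign. In limma on log2(FPKM + 1), where the added 1 shrinks differences of low genes, the values were -0.16 for SLC38A3 and 0.24 for GPT.

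Among all tested genes, the 3 whose log2 CPM profile over the 6 samples lay nearest to that of GLUD1 were MIGA1, WWP1 and COX15. Their root mean square differences from GLUD1, each profile centred on its own mean, were 0.013, 0.014 and 0.015 log2 units, where the median over 17719 genes was 0.23. The nearest of the 9 was GOT2 at 0.024. These are descriptions over 6 samples of 2 groups that share their libraries.

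Promoter sequence was searched with the values of the genes known. RefSeq promoters (GRCh38.p14, 250 bases before to 50 after a start) were given for 8 of the 9 genes, in 11 promoters, and for 35116 promoters in all. TGATGNAA, a core that ATF4 is known to bind at genes of the amino acid response, was found, with both strands searched, at GOT1 and SLC1A5, in 2 of the 11 promoters, where 3.62% of all promoters hold it. GLUD1, the other gene with separate groups in CPM, had no match. By gene, these were 2 of 8, where 4.46% of 27305 genes hold a match in any of their promoters. TGANTCA, bound by AP-1 (held by 9.37% of all genes), and TGACGTCA, the CRE (2.25% of all genes), were found at none of the 8. By promoter, the shorter TGATG, which lies within TGATGNAA, was found in 5 of the 11, where 32.9% of all promoters hold it. CAGAC, bound by SMAD proteins, was found in 4 of the 11 promoters (45.3% of all promoters) and CCAAT in 3 (34.6%). GGGCGG, bound by SP1, was found in 8 of the 11 (45.0% of all promoters). The windows with TGATGNAA are shown 5′ to 3′ on the strand of the gene, with the match in capitals, which at GOT1 reads on the opposite strand. The SLC1A5 window belongs to a start other than its outermost one.
GOT1, TGATGNAA, 198 bases before the start, chr10:99430804-99430833, minus strand: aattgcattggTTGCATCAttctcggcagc
SLC1A5, TGATGNAA, 97 bases before the start, chr19:46784893-46784922, minus strand: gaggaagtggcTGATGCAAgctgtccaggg
A match describes these letters and is not a measured binding site.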

How the data were processed

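RNA of 6 HK2 samples, 3 AdCtrl and 3 AdSIRT4, was sequenced, and the groups were taken from the labels. The authors deposited raw counts of 38100 genes and, for the same genes, normalized values whose unit is not stated. The latter were taken as FPKM because they summed to 359104 to 447768 over the samples, totals that differ and are not those of TPM or CPM, and because StringTie, which writes FPKM, is among the named tools. The transcript length implied by both deposited tables agreed within 5% over all samples for 11758 of 15894 genes once each sample was set to the same median, which shows scaling by length and does not separate FPKM from TPM. The submitters' processing notes name fastp 0.21.0, HISAT2 2.1.0, StringTie 2.1.5, DESeq2 1.30.1 and hg38, while their roles, settings and the annotation are not given in the sources used here.

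Counts were tested with edgeR 4.0.16 in R 4.3.3 on all 6 samples (filterByExpr at a minimum count of 10, TMM scaling, robust quasi-likelihood test, Benjamini-Hochberg adjustment over 17720 genes, threshold 0.05). Standard errors and 95% intervals come from the same fit. Single genes were also compared with a two-sided exact permutation test of mean log2 CPM. Levels were read in FPKM. All 9 genes were named, as were SIRT4, the 5 wider pathway genes with the smallest unadjusted p (none passed after adjustment) and the 3 genes nearest to GLUD1. The genes, lists and tests were chosen with earlier results of these data known, so no count here is independent support for a pattern.

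A count of 0 allows up to 3 counts, or 0.0350 to 0.0722 CPM, and this covers counting error only. Deviations from the group mean correlated across genes at 0.178, 0.159 and 0.176 between samples of the same replicate number and at -0.188 to 0.030 between others, so the numbers were taken to pair the samples and were used as a block in an alternative. The other alternatives were DESeq2 1.42.0, RLE scaling, other filters on low counts, limma 3.58.1 on log2(FPKM + 1) or log2(FPKM + 0.1), removal of each library's trend on gene length, the counts of GLUD1 and GLUD2 summed, and each sample left out in turn. The procedure was tested on simulated data. Tables were made with Python 3.11.15, numpy 2.4.6, pandas 2.3.3 and scipy 1.17.1, and figures with matplotlib 3.10.9. Gene positions and promoters are from RefSeq (GRCh38.p14), and transcripts and overlaps from GENCODE v29 (GRCh38). Some markers, genes and promoter matches are not reported here.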

Additional observations from a re-analysis of the deposited data

How the results depend on the processing

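The direction of each of the 9 genes was kept in all their own alternatives, and GLUD2 reversed to -0.13 only when its counts were summed with those of GLUD1, which outnumber them. The number of all genes with an adjusted p under 0.05, 2 in edgeR with all samples, was 206 in DESeq2, 5 without a filter, 4 with at least 10 counts in every sample, 1 with the replicate number as a block, 0 in limma on log2(FPKM + 1), whether blocked or not, 1 with a pseudocount of 0.1, 5 at a mean FPKM of at least 1, 12 with the length trend removed and 6 with the block as well. With a sample left out it ran from 0 to 1227, the latter without AdSIRT4 replicate 1. Genes at an unadjusted p under 0.05 (1406) numbered 911 in limma at a mean FPKM of at least 1, 2463 with the length trend removed, 2460 with the block as well and 668 to 4446 with a sample left out. Of the 9, 0 passed after adjustment in every fit but the one without AdSIRT4 replicate 1, which gave 1 (GOT1, whose log2 fold change lay between -0.34 and -0.17 with a sample left out). At an unadjusted p under 0.05 (1 of the 9) there were 2 in DESeq2, with at least 10 counts in every sample and in limma at a mean FPKM of at least 1, 3 with the length trend removed with or without the block, and 0 to 4 with a sample left out, 0 being reached without AdCtrl replicate 1 or 3 or AdSIRT4 replicate 2. In the wider list the adjusted count (0) was 1 in DESeq2 and 0 to 6 with a sample left out, and the unadjusted count (9) was 5 in limma on log2(FPKM + 1), also at the FPKM minimum, 15 with the length trend removed and the block, and 3 to 21 with a sample left out. The median of that list (-0.058) ran from -0.067 to 0.00099 with a sample left out, and was -0.015 without AdCtrl replicate 1 and 0.00099 without AdSIRT4 replicate 2. The log2 fold change of SIRT4 was 4.88 in limma on log2(FPKM + 1), with an adjusted p of 0.0847, or 0.150 with the block, and 6.10 to 6.59 with a sample left out, with an adjusted p above 0.05 without any 1 AdCtrl replicate (0.0559, 0.203 and 0.186). Among the 5 named wider genes, PSAT1 passed after adjustment in DESeq2 and PSAT1 and SLC1A4 without AdSIRT4 replicate 1. The replicate block, given by the pairing of the numbers, changed no call among the 9 genes. The cause of these changes was not tested. Depth limits GLUD2, GLS2, SLC38A3 and GPT, whose libraries held 9 to 105 counts each.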
